A study of Mus musculus with 124 samples.

Results

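Wild-type (WT) mice of the rTg4510 and J20 lines were compared with each other at the 2 ages at which both lines were sampled. The comparison used 32 of the 124 mice of the series, namely the 16 rTg4510 WT mice and the 16 J20 WT mice labelled 6 or 8 months, with 8 mice in each group of line and age. DNA methylation (DNAm) was compared at the cytosines listed for both lines. The series profiled the entorhinal cortex of both lines by reduced representation bisulfite sequencing (RRBS), in which bisulfite converts unmethylated cytosines and the share of reads that keep a C is the DNAm level. rTg4510 transgenic (TG) mice express a mutant human tau from a transgene that the CaMKIIα-tTA activator drives, and J20 TG mice express a mutant human amyloid precursor protein. The WT mice are littermates labelled WT, no experimental treatment is named for them, and the study's methods state that only female mice were used. Whether WT littermates of the rTg4510 line carried the activator alone is not given in the sources used here, and neither is the strain background of either line.

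Line, strain background and the making of each line's deposited table cannot be told apart here, because each line came in a table of its own, with its own set of cytosines. Whether filtering and smoothing were run on each line by itself is not given in the sources used here. The study's methods describe blinded batches and the labels a spread of the library pools over several sequencing lanes, but which batches or lanes held which line is not given, so line and sequencing run cannot be told apart either. The files give no read number beside a fraction. The depth of each value is therefore unknown, no interval is given for a single value, and the errors printed are the spread over mice. A cytosine that a strain carries as T reads as unmethylated after bisulfite conversion, so a sequence variant at a CpG and a loss of DNAm cannot be told apart from these values.

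In mammals DNAm sits mainly on CpG dinucleotides. CpG-rich promoters are usually unmethylated, while most other CpGs are methylated. Some loci carry methylation on a single one of both copies. In females these include CpG-rich promoters on the inactive X chromosome, and in both sexes the control regions of imprinted genes, which are methylated on the maternal or the paternal copy. Ribosomal RNA genes are present in many copies, of which some are methylated and silent. Inbred mouse strains differ in sequence and in the methylation of some repeats and loci.

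For J20 1998534 cytosines were listed and for rTg4510 1942467, and 1823477 were listed for both. Averaging the strands gave 1462139 CpG sites, of which 1383913 had at least 6 values in each group of 8 mice and were tested, 1163910 of them with a value in all 32 mice. Sites at most 100 bp apart were joined into 116203 regions of 3 or more sites. A promoter was the 1500 bp on either side of a gene start with 3 or more tested sites, which gave 18603 promoters. A feature was called where a beta regression of its level on line and age gave a false discovery rate (FDR, over all features of its kind) under 0.05 and the line means differed by at least 10 percentage points. Differences are given as rTg4510 minus J20, in percentage points.

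Mice J23 and Q17 were at the ends of their lines in mean level. Mouse J23, a J20 mouse of 6 months, had a mean level of 30.5%, the highest of the 16 J20 mice and within the range of the rTg4510 mice. Mouse Q17, an rTg4510 mouse of 6 months, had the lowest mean level of its line, 27.4%. Counts without each of them are given with the results. The number of tested sites without a value did not separate the lines, with 13448 ± 14571 sites (SD, n = 16) in rTg4510 and 15700 ± 9446 (SD, n = 16) in J20 mice (permutation P = 0.61).

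DNAm was higher in rTg4510 than in J20 WT mice across the tested sites. The mean level per mouse was 30.1% ± 1.06 (SD, n = 16) in rTg4510 and 27.1% ± 1.57 (SD, n = 16) in J20 mice, a difference of 2.98 points (permutation within age, two-sided, 100000 resamples, P = 1e-05, the smallest they can give; Benjamini-Hochberg adjusted over 9 summaries, P = 1.8e-05). At 6 months the level ran from 27.4 to 31.4% with a median of 29.8% in rTg4510 mice, and from 25.6 to 30.5% with a median of 27.9% in J20 mice, so the lines overlapped (exact permutation test, P = 0.016). At 8 months it ran from 29.4 to 31.6% (median 30.5%) in rTg4510 and from 24.5 to 28.1% (median 26.5%) in J20 mice, and no mouse of either line lay within the range of the other (exact permutation test, P = 0.00016, the smallest 8 against 8 can give).

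The higher mean came with fewer sites of low level. Sites under 20% made up 62.0% ± 1.38 of the sites of an rTg4510 mouse and 65.5% ± 1.87 of those of a J20 mouse (SD, n = 16 each, adjusted permutation P = 1.8e-05). Sites over 80% made up 20.9% ± 1.23 and 18.4% ± 1.46 (adjusted permutation P = 6.4e-05), and sites in between 17.1% ± 0.723 and 16.0% ± 0.717 (adjusted permutation P = 0.00082).

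**Figure D1:**
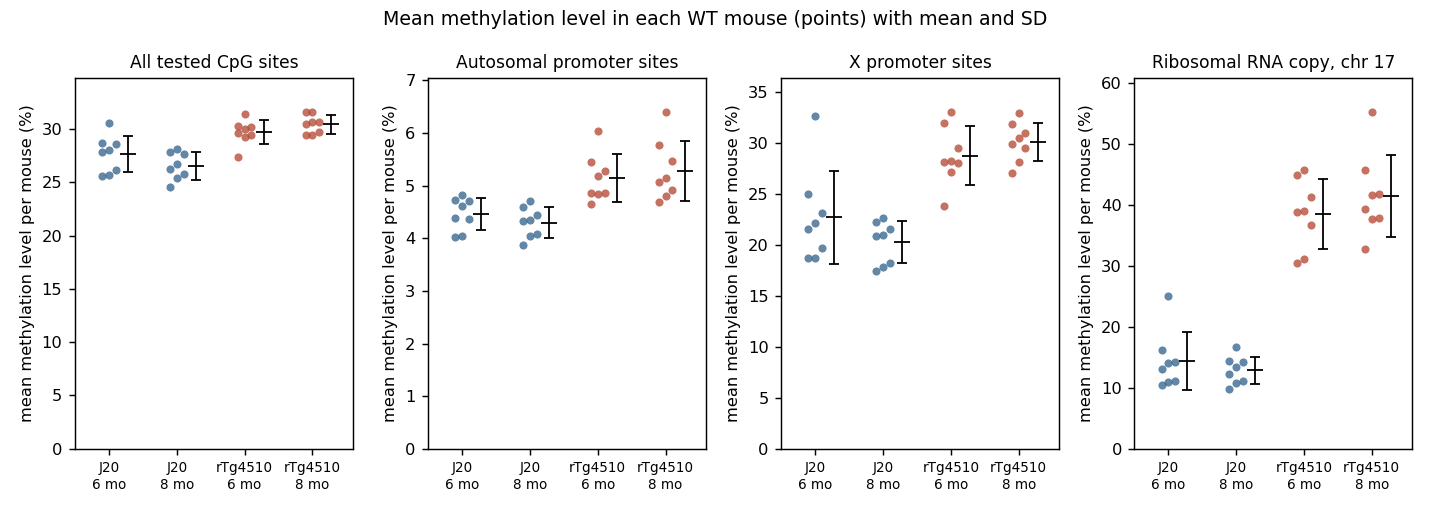
Mean DNAm level (%) of each WT mouse (points, blue for J20, red for rTg4510) by line and age, over all tested CpG sites, autosomal promoter sites, X promoter sites and the ribosomal RNA copy on chromosome 17, with the mean and SD of 8 mice beside the points. Over all sites the line means were 30.1 and 27.1%, and only in the ribosomal copy among these panels did no mouse overlap the other line at either age.

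Of the tested CpG sites, 50065 were called, which is 3.62% of them, and 43663 of these were higher in rTg4510 and 6402 lower. Among regions 10852 were called (9.34%), of which 9662 (89.0%) were higher and 1190 lower in rTg4510, against a median difference of 1.34 points over all regions. Among promoters 829 were called (4.46%), 795 higher and 34 lower, against a median difference of 0.537 points over all promoters. Without mouse J23, 12537 regions and 955 promoters were called, and without mouse Q17, 11822 and 884. Only among the largest differences were the directions more even. At a difference of at least 25 points, 13163 called sites were higher in rTg4510 and 2247 were lower. At a difference of at least 50 points, 435 called sites were higher and 471 were lower. Those 471 include the 175 sites, described below, with means under 5% in rTg4510 and over 80% in J20.

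The size of the line difference followed the level of the region. Regions with a mean level under 5% on autosomes differed by a median of 0.404 points, and none of 31259 was called. The median difference was 8.47 points at 20 to 30% and 12.2 points at 40 to 50%, where 32.2% of 5126 regions were called. It fell to 2.95 points at 80 to 90% and was -0.0959 points at 95 to 100%, where the level likewise bounds the difference. Called regions that were lower in rTg4510 lay mostly at high levels, and at 80 to 90% they outnumbered those that were higher, with 506 against 368. Within an age, mice of both lines varied to a like extent, with a median SD over regions of 6.82 points in rTg4510 and 7.12 in J20.

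**Figure D2:**
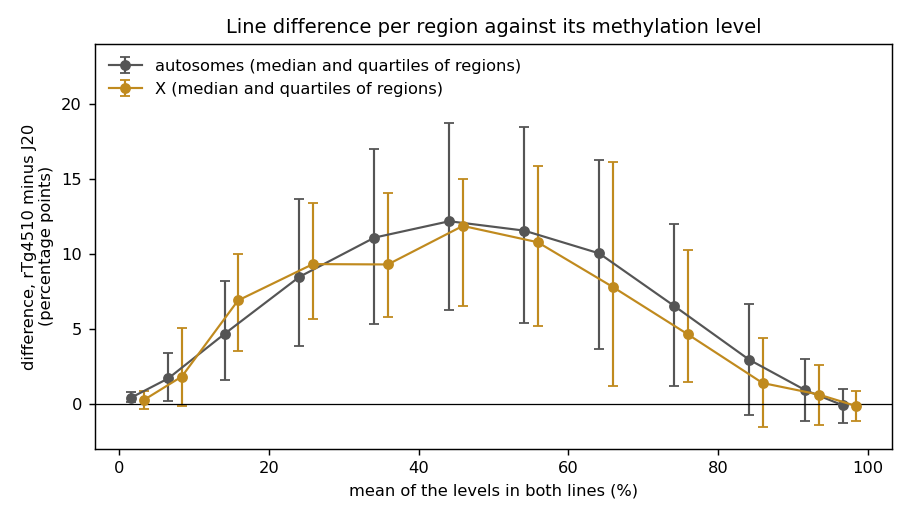
Difference per region in percentage points (rTg4510 minus J20) against the mean of the levels in both lines (%), for autosomes (grey) and the X chromosome (ochre), with points at the median and bars at the quartiles of the regions in each range of level. The median difference was largest at 40 to 50%, at 12.2 points on autosomes and 11.9 on the X chromosome, and near 0 at both ends.

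The X chromosome held the largest share of called features of any chromosome. On it 13.5% of 35297 sites and 14.1% of 3195 regions were called, and on autosomes 3.36% of sites and 9.20% of regions, with a range over autosomes from 7.89 to 10.4% of regions. The difference was clearest at promoters. Of 529 X promoters, 150 (28.4%) were called and all 150 were higher in rTg4510, and of 18074 autosomal promoters 3.76% were called, 645 higher and 34 lower. The median level of an X promoter was 29.0% in rTg4510 and 19.8% in J20, while the median of an autosomal promoter was 2.297% and 1.70%. Counted without mouse J23, 191 X promoters were called higher and 1 lower. In limma on the fractions 149 were called, all higher, and with every mouse also shifted to the same mean level 79 were called higher and 2 lower, with a median difference of 5.66 points. With that shift 559 of 18074 autosomal promoters were called higher and 71 lower, with a median difference of -1.79 points. The shift moves every promoter of a mouse by the same amount, so it could not take out a difference that follows the level. At 6 months alone 16 were called, all higher, and at 8 months alone 204 higher and 1 lower.

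The difference followed the level on the X chromosome as well, with medians above those of autosomes at 5 to 30% and below them in the other ranges of level. At 20 to 30% the median difference was 9.32 points over 577 X regions and 8.47 over 5901 autosomal regions, and at 10 to 20% it was 6.89 and 4.67 points. At 70 to 80% it was 4.64 and 6.53 points, and at 80 to 90% 1.39 and 2.95 points. The share called was 35.7% on the X chromosome and 23.7% on autosomes at 20 to 30%, and 16.2 and 8.95% at 10 to 20%. These shares and medians are descriptions over regions, which share mice and are not replicates.

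Per mouse, the mean level of X promoter sites was 29.4% ± 2.46 (SD, n = 16) in rTg4510 and 21.5% ± 3.65 (SD, n = 16) in J20 (adjusted permutation P = 1.8e-05). It ran from 23.8 to 33.0% in rTg4510 and from 17.5 to 32.6% in J20, where the highest value was that of mouse J23. Autosomal promoter sites averaged 5.21% ± 0.503 and 4.38% ± 0.298 (adjusted permutation P = 1.8e-05), and the gap between X and autosomal promoter sites was 24.2 ± 2.49 and 17.1 ± 3.44 points (SD, n = 16 each, adjusted permutation P = 4.5e-05).

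Promoters of X genes known for X inactivation were looked up after the overall values were seen. Of genes that are expressed from both X chromosomes, 4 were almost unmethylated in both lines. These were Kdm5c and Kdm6a, which encode histone demethylases, with 1.97% ± 1.08 against 1.42% ± 0.687 and 1.71% ± 0.841 against 1.08% ± 0.359 in rTg4510 and J20 (SD, n = 16 each), the RNA helicase gene Ddx3x with 1.35% ± 0.983 against 1.09% ± 0.416, and the translation factor gene Eif2s3x with 1.31% ± 0.920 against 0.994% ± 0.592. None of these 4 was called, but at such levels none could differ by the size that a call needs. Kdm6a passed the FDR (FDR = 0.046) and was higher in rTg4510. Kdm5c, Ddx3x and Eif2s3x did not pass it (FDR = 0.23, 0.57 and 0.42).

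The other genes of this lookup lay between 13.1 and 31.5% in both lines, apart from Pbdc1 (3.05% ± 1.59 against 3.88% ± 1.41). Which of these other genes are expressed from both X chromosomes was not tested. Rbmx, which encodes an RNA-binding protein of the splicing machinery, had 27.3% ± 3.35 in rTg4510 and 15.9% ± 2.69 in J20 (SD, n = 16 each, FDR = 9.5e-10). No mouse of the lines overlapped at its promoter, with 21.4 to 32.3% in rTg4510 and 11.1 to 20.2% in J20. Phf6, a chromatin reader gene, was also called (31.5% ± 5.30 against 19.5% ± 8.37, FDR = 0.00071). Hprt, the purine salvage enzyme gene, was at 22% ± 5.36 against 13.1% ± 3.905 (FDR = 0.00018), Fmr1, which encodes the fragile X protein, at 26.5% ± 5.26 against 18.8% ± 6.48 (FDR = 0.0064) and Ogt, the O-GlcNAc transferase gene, at 21.6% ± 4.59 against 15.3% ± 6.09 (FDR = 0.010), each with an FDR under the threshold and a difference under 10 points. Pgk1, the glycolytic phosphoglycerate kinase gene, did not pass the test (22.03% ± 3.98 against 19.5% ± 3.11, FDR = 0.14), and neither did the chromatin remodeller gene Atrx (31.2% ± 12.3 against 20.9% ± 15.8, FDR = 0.062), Utp14a (15.1% ± 4.37 against 16.3% ± 3.98, FDR = 0.47) or the ubiquitin ligase gene Huwe1 (17.1% ± 13.8 against 15.6% ± 10.7, FDR = 0.93).

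Imprinted genes were the gene list with the largest share of called promoters. Of 25 measured, 12 (48.0%) were called, all higher in rTg4510, against 4.46% of all promoters. Their median difference was 8.61 points, against 0.537 over all promoters, most of which lay at low levels. The median level of the list was 30.2% in rTg4510, at Cdkn1c, and 15.7% in J20, at Kcnq1ot1, so these medians belong to different promoters. Autosomal regions at 20 to 30%, of which 23.7% were called, had a like median difference of 8.47 points. Leaving out mouse J23 or mouse Q17 left 12 called, and leaving out the mouse with the fewest values in each line left 9. In limma on the fractions 9 were called, all higher, with or without a shift of every mouse to the same mean level. At 6 months alone 2 were called and at 8 months alone 10, all higher.

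The largest difference was at the gene start used for Gnas, chr2:174284320, the outer start of a locus that encodes the stimulatory G protein alpha subunit. Other starts within the locus were not measured by this window. Over the 67 sites of the window the level ran from 21.1 to 48.3% (median 33.9%) in rTg4510 and from 7.20 to 29.9% (median 14.3%) in J20. The means were 34.8% ± 7.10 and 14.8% ± 5.59 (SD, n = 16 each, FDR = 5.4e-08). Nespas, the antisense transcript of the same locus, was at 40.7% ± 13.1 against 25.2% ± 11.5 (FDR = 0.0081). Mcts2, a retrogene, had 34.9% ± 10.9 against 15.4% ± 8.07 (FDR = 4e-05), and mouse J23 held the highest J20 value there, 40.2%, with the next highest mouse of its group at 13.6%. The lines overlapped at each of these promoters.

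Airn, the non-coding RNA that silences Igf2r on the paternal copy, was at 36.2% ± 9.58 in rTg4510 and 21.1% ± 10.2 in J20 (SD, n = 16 each, FDR = 0.0012), whereas the promoter of Igf2r itself was at 8.48% ± 4.31 and 5.75% ± 2.49 (FDR = 0.11). The other called members were Nnat, Nap1l5, Zrsr1, Peg3, H19, Meg3, and the neighbours Sgce and Peg10, whose windows held the same 13 sites, with differences from 10.4 to 14.9 points. Uncalled members ranged from low to high levels in both lines. Ube3a was at 0.973% ± 0.713 and 0.738% ± 0.333 and Dlk1 at 3.23% ± 1.73 and 2.66% ± 0.714. Cdkn1c was at 30.2% ± 3.04 and 26.0% ± 5.54 (FDR = 0.037, a difference of 4.16 points), Magel2 at 45.4% ± 3.80 and 42.5% ± 5.42 (FDR = 0.18) and Igf2 at 71.4% ± 13.2 and 65.6% ± 12.8 (FDR = 0.46).

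**Figure D3:**
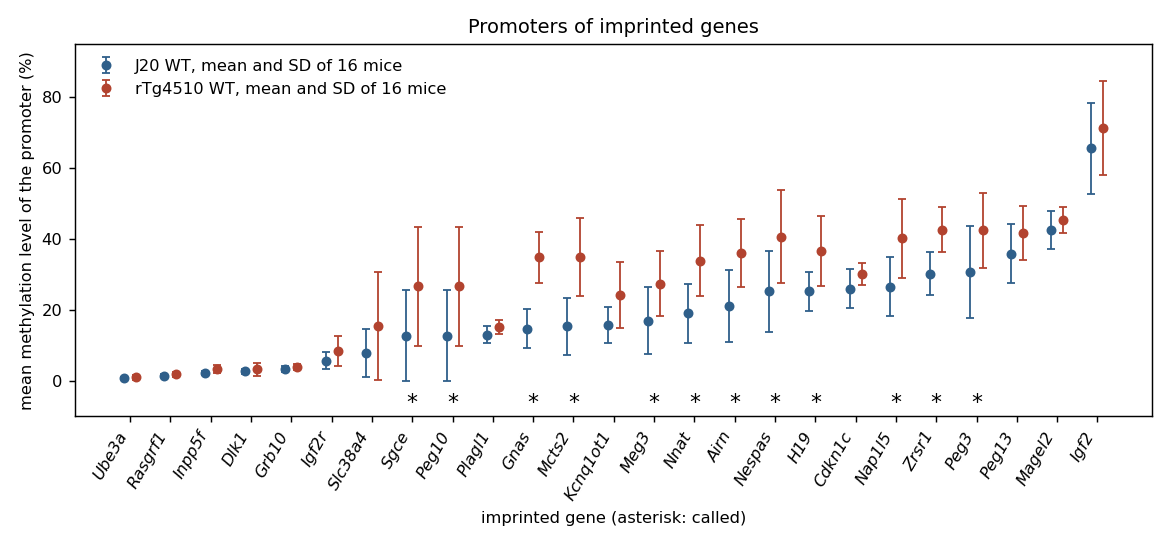
Mean DNAm level (%) with SD over 16 mice at the promoters of the 25 imprinted genes measured, ordered by the J20 mean, in J20 (blue) and rTg4510 (red) WT mice, with an asterisk below the 12 called promoters. The called promoters lay between 12.8 and 30.7% in J20 and between 26.7 and 42.7% in rTg4510, and the lines overlapped at each of them.

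A stretch of chromosome 17 stood apart from the rest of the genome and was singled out after its values were seen. Between positions 39842309 and 39848800 (GRCm38) lies a copy of the ribosomal RNA repeat, which RefSeq lists as Rn18s-rs5 and GENCODE as Gm26917, Gm42418 and CT010467.1. Ribosomal RNA genes exist in many near-identical copies, so reads placed here can come from other copies, and the values are those of the reads assigned to this copy. Of its 410 tested sites, 407 were called, all higher in rTg4510, with site differences from 14.99 to 43.0 points and a median of 26.6 points. The mean level per mouse ran from 30.5 to 55.3% (median 39.2%) in rTg4510 and from 9.87 to 25.1% (median 13.3%) in J20, and no mouse lay within the range of the other line. The means were 40.04% ± 6.21 and 13.6% ± 3.68 (SD, n = 16 each), and since the stretch was chosen for these values no test is given. The highest J20 mouse was again J23. TG mice of the same ages had 41.2% ± 3.25 (n = 14) and 14.4% ± 2.22 (n = 15) there, and WT mice of the other ages 37.0% ± 5.95 (rTg4510 at 2 and 4 months, n = 15) and 19.5% ± 4.25 (J20 at 10 and 12 months, n = 16).

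In 306 regions, 0.263% of those tested, the 16 mice of one line did not overlap the 16 of the other. Of these 279 were called, 180 lower and 99 higher in rTg4510, which is 64.5% lower, while 89.0% of all called regions were higher. The 180 lower regions had a median level of 65.0% in rTg4510 and 95.0% in J20, and the 99 higher regions 53.5% and 16.9%. They differed in where they lay. Most CpGs were in repeats in 33.3% of the lower and 11.1% of the higher regions, against 8.43% of all regions, and 2.78% of the lower and 26.3% of the higher regions reached a promoter, against 28.6% of all regions. These shares are descriptions, with no test.

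Sequences are shown for 4 loci outside exons, from regions with 5 or more CpGs in which every mouse separated the lines. They show how close together the CpGs of a region lie. Smoothing draws neighbouring CpGs together, so a like difference at close CpGs is not a separate result. The sequences are read from GRCm38, which is the sequence of C57BL/6J, on the plus strand from 5′ to 3′, with the tested CpGs in capitals.
Cep250, chr2:155988184-155988283: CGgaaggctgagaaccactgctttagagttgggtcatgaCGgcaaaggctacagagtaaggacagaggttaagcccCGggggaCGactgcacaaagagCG
Arhgef3, chr14:27122184-27122222: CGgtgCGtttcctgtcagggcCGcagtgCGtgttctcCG
Eid2b, chr7:28277380-28277417: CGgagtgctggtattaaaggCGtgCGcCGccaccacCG
Sorl1, chr9:41981951-41982052: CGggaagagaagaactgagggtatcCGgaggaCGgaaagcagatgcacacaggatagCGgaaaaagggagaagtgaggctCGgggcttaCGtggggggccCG

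The first 3 of these were lower in rTg4510. The Cep250 region, of 100 bp and 5 CpGs in an intron of the gene for a centrosomal protein, ran from 46.0 to 74.1% (median 60.4%) in rTg4510 and from 90.2 to 98.7% (median 94.0%) in J20 (61.8% ± 7.12 against 93.8% ± 2.71, SD, n = 16 each, FDR = 7.2e-15). The Arhgef3 region, of 39 bp and 5 CpGs in an intron of a guanine nucleotide exchange factor gene, varied least between mice, with 71.4 to 76.8% in rTg4510 and 94.6 to 100% in J20 (74.6% ± 1.66 against 98.6% ± 1.56, FDR = 1.3e-21). The Eid2b region, of 38 bp in a repeat upstream of the gene for an inhibitor of differentiation, ran from 45.8 to 61.8% and from 62.5 to 83.4% (53.9% ± 4.95 against 75.6% ± 5.70, FDR = 7.6e-11).

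The Sorl1 region was higher in rTg4510. This gene encodes a sorting receptor of the amyloid precursor protein, and its region of 7 CpGs lies in an intron, with its centre 142296 bp from the gene start. Its level ran from 76.4 to 97.7% (median 91.8%) in rTg4510 and from 22.9 to 56.9% (median 42.5%) in J20 (90.3% ± 5.42 against 40.7% ± 11.1, SD, n = 16 each, FDR = 2e-13), while the Sorl1 promoter was at 3.55% ± 0.662 and 2.97% ± 1.11 (FDR = 0.13).

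The other named regions that were lower in rTg4510 included 3 in coding exons. Samd4, which encodes an RNA-binding translational repressor, had the largest difference, at chr14:47016782-47016954 with 9 CpGs, from 30.2 to 71.1% (median 48.1%) in rTg4510 and from 77.7 to 99.3% (median 92.2%) in J20 (49.6% ± 12.0 against 91.1% ± 6.38, SD, n = 16 each, FDR = 7.8e-11). Pdgfrb, the platelet-derived growth factor receptor beta gene that marks pericytes, followed with 18.6% ± 8.10 against 54.1% ± 6.62 over 12 CpGs (FDR = 3e-11). The region in Myh7b, a myosin heavy chain gene, had 55.3% ± 10.3 against 83.4% ± 10.3 (FDR = 6.1e-06), and its highest rTg4510 mouse and lowest J20 mouse were only 69.3 and 69.5%. In Rbbp8 (DNA end resection), Pde6c (the cone phosphodiesterase), Galnt10 (a glycosyltransferase) and upstream of Cbx7 (a Polycomb protein) the J20 mean was 98.2, 96.8, 94.2 and 97.2%, and the rTg4510 mean 73.3, 75.7, 72.2 and 73.0%, in that order. The Galnt10 region had no value in 1 J20 mouse, so its fit used 15.

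Of the other regions that were higher in rTg4510, 2 were nearly unmethylated in J20. The Mturn region, at chr6:54699638-54699698 in an exon of a gene of neural differentiation, was at 0 to 8.99% in J20 and spread from 20.8 to 87.1% (median 55.8%) over the rTg4510 mice (1.73% ± 2.501 against 54.7% ± 21.3, SD, n = 16 each, FDR = 3.3e-09). The Ndufc2 region, at chr7:97400156-97400344 with 16 CpGs centred 247 bp after the start of this gene for a subunit of respiratory complex I, was at 0 to 2.35% in J20 and 31.4 to 63.5% in rTg4510 (0.972% ± 0.669 against 40.5% ± 9.17, FDR = 2.5e-18).

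On chromosome 8, 3 of these regions lay within a few megabases of each other. They were in a coding exon of Mef2b (a MADS-box transcription factor gene), with 80.0% ± 7.76 in rTg4510 and 42.1% ± 10.8 in J20, in Fam129c, with 37.3% ± 4.34 against 6.46% ± 1.11 over 55 CpGs, and in the promoter of B3gnt3 (a glycosyltransferase gene), with 35.8% ± 8.39 against 9.54% ± 1.67 (SD, n = 16 each). The remaining ones were in introns or exons of Rtkn2 (84.4% ± 3.76 against 37.9% ± 12.3), Cldn14 (49.8% ± 12.2 against 17.97% ± 4.11) and Kank4 (75.2% ± 7.29 against 47.4% ± 8.89). At each age alone the exact permutation test gave its smallest possible P, 0.00016, at all 20 named regions. Since these regions were chosen for not overlapping, that P is a description.

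**Figure D4:**
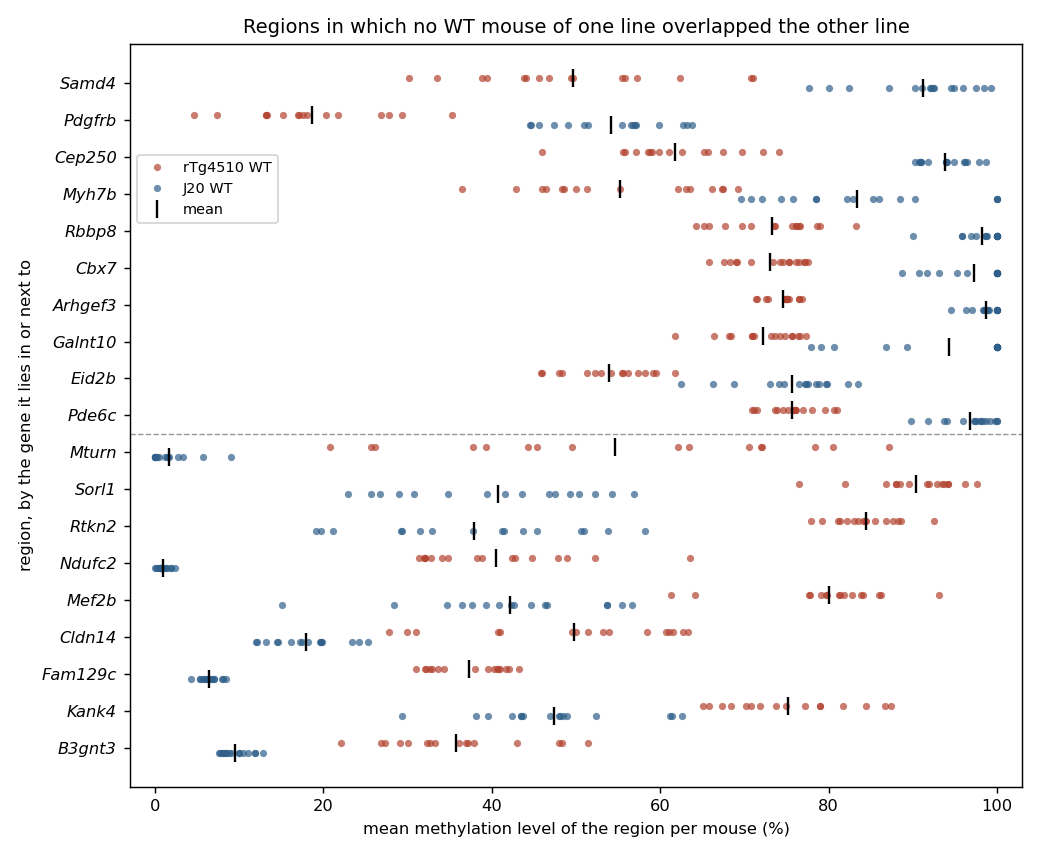
Mean DNAm level (%) of 19 named regions in each WT mouse, in red for rTg4510 and blue for J20, with a black bar at the mean of a line. The 10 regions above the dashed line were lower in rTg4510 and the 9 below were higher, and in Arhgef3 the rTg4510 mice spanned only 71.4 to 76.8% while in Mturn they spanned 20.8 to 87.1%.

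Single CpGs reached the extremes. At 175 sites the mean was under 5% in rTg4510 and over 80% in J20, all 175 called, with a median difference of -93.1 points, and the reverse held at 14 sites. Of the 175, 165 had another tested site within 100 bp, and the nearest of these differed by a median of -0.450 points, 130 of them by less than 10 points. At the 14 sites of the reverse pattern the nearest site differed by a median of 80.7 points. Of the 175, 3 were in promoters, 162 were in introns or between genes, and 30.3% were in repeats. Of all 1383913 tested sites, 686772 were in promoters, 280927 in introns, 250250 between genes and 115260 in repeats. The 175 were chosen for a level over 80% in J20, where promoter sites had a median level of 1.11%, so these counts are descriptions.

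Windows around 3 such CpGs, with 20 bases on either side, are shown because the CpG in capitals differed from one extreme to the other while its nearest tested neighbour differed by less than 10 points. They are read from GRCm38 on the plus strand, 5′ to 3′.
Agbl4, chr4:111466874-111466915: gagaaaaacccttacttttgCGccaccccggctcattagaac
Ccdc93, chr1:121459279-121459320: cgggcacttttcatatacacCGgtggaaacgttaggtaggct
Glis1, chr4:107582281-107582322: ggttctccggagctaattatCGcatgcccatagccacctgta

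The Agbl4 site was at 0% in each of the 16 rTg4510 mice and at 100% in each of the 16 J20 mice, while the CpG 8 bp away was at 94.5 and 90.9%. The Glis1 site was at 0% in each rTg4510 mouse and between 88.1 and 100% in J20 mice, with its neighbour 13 bp away at 98.1 and 97.6%. The Ccdc93 site was at 0% in each rTg4510 mouse and between 95.0 and 100% in J20, with its neighbour 9 bp away at 86.9 and 89.2%. Not every neighbour was alike in both lines. At a CpG in Rad51b the lines had 0 to 6.25% and 88.5 to 100%, and a CpG 47 bp away had 68.0 and 86.5%. These sites were chosen for their values, so no test is given.

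More widely, 959 called sites were over 80% in J20 and lower in rTg4510 with no overlap between mice. In rTg4510, 163 of them were under 5%, only 34 were at 5 to 30%, 295 at 30 to 60% and 354 at 60 to 80%, and the rest were over 80% in both lines. The reverse set, over 80% in rTg4510 and lower in J20, held 189 sites, with 14 under 5%, 20 at 5 to 30%, 126 at 30 to 60% and 24 at 60 to 80% in J20 and the rest over 80% in both lines.

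**Figure D5:**
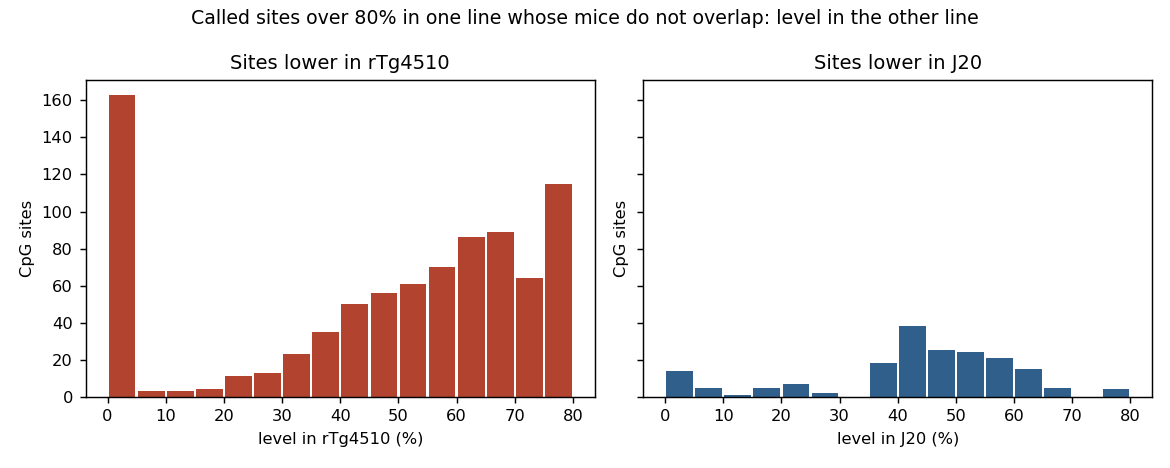
Number of called CpG sites by their level (%) in the line in which they were lower, in bins of 5 points up to 80%, for sites that were over 80% in the other line and whose mice did not overlap. Sites lower in rTg4510 (left) had 163 in the lowest bin and 3 in the next, and sites lower in J20 (right) had 14 and 5. Sites over 80% in both lines are not drawn.

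The same comparison in TG mice of 6 and 8 months (14 rTg4510 and 15 J20), which did not enter the WT comparison, called 7589 regions, 6.59% of 115220, of which 82.2% were higher in rTg4510. Of the 10829 regions called in WT mice and tested in TG mice, 95.9% differed in the same direction and 38.6% were called in it, with none called in the opposite direction. Of the regions not called in WT mice, 70.4% had the same direction and 3.12% were called in it. All 279 called regions without overlap had the same direction in TG mice, and 272 of them were called.

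In WT mice of the other ages, rTg4510 at 2 and 4 months (15 mice) and J20 at 10 and 12 months (16 mice), age and line cannot be told apart. There 2345 regions were called, 2.03% of 115588, and only 36.7% of them were higher in rTg4510. Of the regions called at 6 and 8 months, 80.7% had the same direction and 13.6% were called in it, with 2 called in the opposite direction. Their median difference in the direction seen at 6 and 8 months was 5.41 points, against 17.4 points at those ages. Of the regions not called at 6 and 8 months, 63.1% had the same direction and 0.723% were called in it. Of the 278 tested regions without overlap, all had the same direction and 269 were called, with a median size of 27.0 points against 29.2 at 6 and 8 months. TG and other WT mice share each line's table, so they are other mice but not another processing.

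Of the 20 named regions, 19 were called in TG mice and 20 in WT mice of the other ages, in the direction seen at 6 and 8 months. The Myh7b region was the exception, with 65.1 and 78.4% in rTg4510 and J20 TG mice (FDR = 0.19). In 15 of the 20 the TG mice of the lines did not overlap. The Sorl1 region was at 91.9 and 50.6% in TG mice and at 90.3 and 54.6% in WT mice of the other ages, and the Ndufc2 region at 41.3 and 1.06% and at 36.6 and 0.858%.

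The mean levels did not behave alike in the other mice. TG mice had a mean level over all sites of 30.6% ± 0.725 in rTg4510 (n = 14) and 28.3% ± 1.51 in J20 (n = 15), with X promoter sites at 29.8% ± 1.68 and 23.4% ± 3.31 and the 25 imprinted promoters at 29.8% ± 3.14 and 21.4% ± 3.29. In WT mice of the other ages the mean level was 29.2% ± 2.06 in rTg4510 (n = 15) and 28.9% ± 1.29 in J20 (n = 16), X promoter sites were at 27.6% ± 4.23 and 25.3% ± 2.93, and imprinted promoters at 26.3% ± 5.72 and 23.1% ± 3.39. These are descriptions, with no test.

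At 6 months 1777 regions were called, 1023 higher and 754 lower in rTg4510, and at 8 months 9409, 8538 higher and 871 lower. Of the regions called over both ages 10837 of 10852 had the same direction at each age, with a median size of 14.6 points at 6 months and 20.3 at 8 months. Since these regions were chosen for their difference over both ages in the same mice, that agreement is a description. The interaction of line and age was called in 0 regions (0% of 116203, beta regression), with 7547 regions (6.49%) at an unadjusted P under 0.05 and a smallest FDR of 0.14. With values of 0 and 1 replaced by the extreme values between them it was called in 21, and by limma in 0. With 8 mice a group, no region passed the test for a line difference that depended on age.

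Among promoters named for the largest differences, Ndufc2 was the only one whose lines did not overlap (32.6% ± 7.44 against 0.930% ± 0.653 over 20 sites, SD, n = 16 each, FDR = 3e-18). The other promoters named for being higher in rTg4510 overlapped. Casq1, the calsequestrin gene of fast muscle, was at 65.8% ± 19.8 against 17.8% ± 13.5 over 3 sites (FDR = 4.5e-06), and Gatm, the rate-limiting enzyme gene of creatine synthesis, at 46.0% ± 12.1 against 15.04% ± 8.48 over 11 sites (FDR = 4.9e-07), although with 500 bp on either side of the start in place of 1500 the Gatm difference was 3.47 points (FDR = 0.23). Rbm44, Bglap3, Fermt3, Zap70 and Sspo differed by 34.0 to 50.5 points, with SDs from 7.82 to 39.9 points within a line. The Fermt3 call (FDR = 0.024) did not hold with values of 0 and 1 replaced (FDR = 0.062) or at either age alone (FDR = 0.19 and 0.20), and Bglap3, Zap70 and Sspo were not called at 6 months alone (FDR = 0.15, 0.19 and 0.13).

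Promoters that were lower in rTg4510 differed by less. Acot10, an acyl-CoA thioesterase gene, was at 64.0% ± 8.31 against 85.7% ± 8.10 (SD, n = 16 each, FDR = 3.3e-06), and Sycp1, a meiotic synaptonemal complex gene, at 77.7% ± 7.45 against 93.5% ± 2.80 over 41 sites (FDR = 5.2e-09). Nxpe4 was at 14.3% ± 2.67 against 27.5% ± 6.99 (FDR = 2.3e-06), but its difference was -0.22 points within 500 bp of the start (FDR = 0.63). Adra1b, Acpp, Mfrp, Ttc23l and Rsph9 differed by -14.0 to -18.8 points, and within 500 bp of the start Rsph9 differed by 1.95 points (FDR = 0.25). Acpp, Ttc23l, Rsph9 and Mfrp were not called at either age alone (FDR = 0.27, 0.11, 0.090 and 0.13 at 6 months and 0.052, 0.28, 0.060 and 0.65 at 8 months), nor was Adra1b at 6 months alone (FDR = 0.18). The Mfrp call (FDR = 0.049) did not hold without mouse Q17 (FDR = 0.053), which was at 7.44% where the other mice of its group were at 58.6 to 80.4%, nor without mouse J23 (FDR = 0.060). It was also lost without the age term (FDR = 0.078), with values of 0 and 1 replaced (FDR = 0.17), over sites with a value in all 32 mice (FDR = 0.077), within 500 bp of the start (FDR = 0.076) and in limma on log2 ratios (FDR = 0.073), and the difference was -25.4 points at 6 months and -8.37 points at 8 months.

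The other gene lists are short, and their counts are read against the 4.46% of all promoters called, of which 795 of 829 were higher in rTg4510. Of the Alzheimer disease risk and pathology genes 2 of 23 (8.70%) were called, both higher in rTg4510. They were Inpp5d, which encodes the inositol phosphatase SHIP1 of myeloid cells (48.2% ± 17.8 against 22.6% ± 11.5, SD, n = 16 each, FDR = 0.0012), and Psen2, a gamma-secretase subunit gene (37.8% ± 10.2 against 26.6% ± 10.4, FDR = 0.019). In this list 0 were called at 6 months alone, 1 at 8 months alone and 1 with every mouse shifted to the same mean level (limma). The endogenous genes of the transgenes, Mapt and App, were at 1.04% ± 0.590 against 0.754% ± 0.427 and 0.989% ± 0.756 against 0.910% ± 0.441, with an FDR of 0.23 and 0.91. Among genes known to differ in sequence between laboratory strains 1 of 8 (12.5%) was called, the major histocompatibility gene H2-Ab1 (75.5% ± 4.47 against 56.0% ± 19.4, FDR = 0.0084). The H2-Ab1 difference was 12.5 points at 6 months and 26.6 points at 8 months, and 0 of these 8 were called at 6 months alone. With every mouse shifted to the same mean level (limma) 1 of the 8 was called higher and 1 lower.

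None of the 15 measured genes of the DNAm machinery, none of 33 genes named in the study's text and neither Fgf14 nor Zbtb20 was called, against 4.46% of all promoters. The median level in the machinery list was 3.05% in rTg4510 and 1.84% in J20, and among the 33 genes 1.99 and 1.52%. A promoter with a mean under 5% over both lines cannot differ by 10 points. Of the 33, St7 (3.84% ± 1.07 against 2.17% ± 0.974, FDR = 0.0011) and Nrxn2 (7.47% ± 3.74 against 4.22% ± 1.76, FDR = 0.017) passed the FDR but not the size of 10 points. Both were higher in rTg4510. Ncapg2, which encodes a condensin subunit, also passed the FDR but not the size, and was lower in rTg4510 (6.38% ± 1.76 against 12.4% ± 0.86, SD, n = 16 each, FDR = 6.1e-11). Its lines did not overlap, with 4.501 to 10.6% in rTg4510 and 10.7 to 14.05% in J20, and it was the 1 gene of this list called at a size of 5 points. The study counts Ncapg2 among the genes that insertion of the CaMKIIα-tTA activator affects. Whether the rTg4510 WT mice carried that activator is not given, and its part in this difference was not tested. At Fgf14 the promoter was at 3.898% ± 1.53 against 3.93% ± 2.17, and at Zbtb20 at 1.32% ± 0.699 against 1.02% ± 0.366 (SD, n = 16 each). Of promoters of cell type markers, 0 of 10 for neurons, 0 of 5 for astrocytes, 0 of 6 for microglia and 0 of 4 for endothelial cells were called, and 1 of 5 (20%) for oligodendrocytes, the myelin glycoprotein gene Mag (63.7% ± 14.8 against 48.4% ± 12.2, FDR = 0.021). The Mag difference was 1.35 points at 6 months and 29.3 points at 8 months, and no oligodendrocyte marker was called at 6 months alone. Sox10 (25.7% ± 3.09 against 18.3% ± 3.33, FDR = 1.3e-05) passed the FDR but not the size. So did Olig1, Cldn5, Sox9 and C1qa (FDR = 0.025, 0.0019, 0.035 and 0.028). Among neuron markers Reln, Snap25 and Syt1 did as well (FDR = 0.017, 0.021 and 0.046). All of these were higher in rTg4510. C1qb did not pass the FDR (64.6% ± 28.1 against 42.6% ± 21.9, FDR = 0.059). Of the microglia markers, 1 was called higher in rTg4510 without mouse J23, and likewise without mouse Q17. The count for microglia was also 1 in the Wald test and with every mouse shifted to the same mean level (limma). Over these lists the median differences were 0.740 points for microglia, 0.797 for astrocytes, 1.15 for neurons, 1.74 for oligodendrocytes and 1.93 for endothelial cells, against 0.537 over all promoters. The share of cell types in the samples was not tested.

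Zinc finger and protocadherin genes were counted by name. Of 289 zinc finger genes named Zfp with a number 7 were called (2.42%, against 4.46% of all promoters), all higher in rTg4510, and at Zfp995 no mouse overlapped, with 8.07 to 31.6% in rTg4510 and 0 to 2.94% in J20 (21.1% ± 6.36 against 1.04% ± 0.743, SD, n = 16 each, FDR = 2.7e-13). Zfp951 (45.6% ± 20.4 against 17.8% ± 7.40, FDR = 0.0075), Zfp180 (37.1% ± 7.21 against 20.1% ± 8.30, FDR = 4.4e-05) and Zfp185 (29.7% ± 7.14 against 14.2% ± 7.38, FDR = 4.1e-05) were the others of the 4 largest differences among the 7 called, each with overlapping lines. Of 35 clustered protocadherin promoters, which set the identity of single neurons and lay at a median of 35.7% and 34.1%, 1 was called, Pcdhb5 (21.4% ± 8.86 against 7.80% ± 10.96, FDR = 0.0013).

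By position, 1.18% of sites in promoters were called, 4.77% in exons, 6.28% in introns and 6.54% between genes. Of promoter sites, 22.5% were called on the X chromosome and 0.711% on autosomes. CpG-dense sequence held fewer called sites, 1.51% against 6.09% elsewhere. Its median level was 1.46% in rTg4510 and 1.12% in J20, against 66.3 and 55.2% elsewhere. Sites at such low levels cannot differ by the size a call needs, so the lower share does not show a smaller line difference. At any size, mice did not overlap at 1015 higher and 273 lower of 747002 CpG-dense sites. For other sites this was 263 and 846 of 636911. Sites in repeats were called lower in rTg4510 in 1.26% and sites outside repeats in 0.390%, while the shares called higher were 2.70 and 3.20%. Called sites without overlap were spread over 336 of 536 windows of 5 Mb. Beside the window of the ribosomal copy, those with the most were chr12:20000001-25000000 with 109 of 1609 tested sites (6.77%), chr8:70000001-75000000 with 83 of 6620 (1.25%) and chr9:120000001-125000000 with 55 of 4212 (1.31%), against 0.163% of all sites. As a share of the tested sites, chr15:20000001-25000000 held more, with 22 of 294 (7.48%).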

How the data were processed

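Entorhinal cortex DNA was profiled by RRBS (Premium RRBS kit, 50 bp single-end reads, per the study's methods). The authors trimmed reads with Trim Galore (0.4.4 in the submitters' processing notes, which also name FastQC and SAMtools 1.8), aligned them with Bismark 0.19.0 and Bowtie2 2.3.4.1 to GRCm38/mm10, filtered cytosines by coverage and smoothed methylation with BiSeq. The deposited values are methylated fractions from 0 to 1, in 1 table per line, with no coverage beside them, and not all of them are smoothed. Of the values between 0 and 1, whole read ratios of up to 100 reads (tolerance 1e-09) made up 2.62% in J20 and 3.43% in rTg4510 where another listed CpG lay within 10 bp, and 54.5% and 55.6% where the nearest lay over 100 and up to 1000 bp away. Smoothing draws neighbouring CpGs together, so sites of a region are not independent.

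From these fractions, cytosines of both strands were averaged to CpG sites, and regions and promoters (GENCODE vM21 gene starts) were averages over their sites. Line was tested by a likelihood ratio in a beta regression (probit link, line and age as terms, 32 mice), with Benjamini-Hochberg adjustment, and 257 sites and 12 regions could not be fitted and were not called. Values were first drawn slightly off 0 and 1. TG mice and WT mice of other ages were fitted in the same way, with at least 5 values per group and no age term for the other ages. Per-mouse values were compared by permuting line within age, two-sided, and by the exact permutation test at each age. Alternatives were a logit link, a Wald test, replacing 0 and 1, no age term, single ages, left-out mice, complete sites, limma 3.58.1 (R 4.3.3) on fractions and on log2 ratios, a common mean per mouse, other sizes of difference and other windows. Scripts used Python 3.11.15, numpy 2.4.6, scipy 1.17.1, pandas 2.3.3 and numba 0.67.0, and were tested on simulated data.

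Named regions were, per direction, the 10 with the largest difference among called regions without overlap, with 5 or more CpGs, in a protein-coding gene or within 1500 bp of its start, 1 per gene and without provisional gene symbols. Of these 20 regions, 1 is counted but not reported here. Named promoters were the 8 called with the largest difference per direction, and of each gene list every called promoter was named, or the 4 largest where more than 5 were called, with uncalled members the list is known for. The groups, gene lists and tests were chosen with earlier results of these data known. The X promoters looked up by name, the ribosomal copy, the single CpGs and the fits without mouse J23 or Q17 were chosen after values were seen. The labels give the mice as separate samples.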

Additional observations from a re-analysis of the deposited data

Results flagged for a closer look

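Within groups of 8 mice, 33 of 320 sets of values held a mouse whose distance to its nearest neighbour was large for the range of the group by Dixon's criterion. Chance flags about 1 in 20 groups. Mouse J23, a J20 mouse of 6 months, accounted for 9 of the 33, and was the highest of its group at the promoters of Mcts2 (40.2%), Sgce and Peg10 (51.1% at each), Zfp185 (37.1%), Hprt (23.7%) and Fmr1 (37.9%), in X promoter sites (32.6%), in the gap between X and autosomal promoter sites (27.8 points) and in the ribosomal copy (25.1%). Mouse Q17, an rTg4510 mouse of 6 months, accounted for 5, being lowest at the Sorl1 region (76.4%) and the Mfrp promoter (7.44%) and highest at Ddx3x (3.04%), Kdm6a (3.44%) and in the share of sites under 20% (65.8%).

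The other J20 mice that stood apart at 6 months were E17, lowest at the Rbbp8 region (90.01%) and the Adra1b promoter (88.4%) and highest at Psen2 (50.4%), and F23, highest at the Kank4 region (61.3%), Mfrp (100%) and Airn (55.0%). At 8 months they were H21, lowest at the Arhgef3 region (96.3%), F17, highest at Zfp995 (2.94%) and Ddx3x (2.15%), and B17, highest at Pcdhb5 (11.5%).

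Among rTg4510 mice, L19 of 6 months was highest at Psen2 (63.9%) and Zfp951 (77.3%). At 8 months O23 was lowest at the Arhgef3 region (71.4%) and Fmr1 (18.6%), K23 was highest at Nxpe4 (22.2%) and Airn (64.5%), T21 was lowest at Bglap3 (0%) and Rbmx (21.4%), and Q19 was lowest at Zfp185 (19.6%).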

How the results depend on the processing

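At 6 months alone 8783 sites, 1777 regions and 109 promoters were called, and regions higher in rTg4510 made up 57.6% of those called. Requiring 25 points left 15410 sites, 2053 regions and 70 promoters, and 5 points gave 57748 sites, 13522 regions and 1376 promoters. Shifting each mouse to the same mean (limma) gave 79436 sites, of which 82.8% were higher. Regions of at least 5 sites gave 4672 calls, and promoters of 500 bp on either side 495. With 0 and 1 replaced, the line by age interaction was called in 21 regions. The cause of these changes was not tested, apart from the fewer mice, sites or larger differences that some settings impose. Under the other alternatives the counts stayed within 1.5 times the main ones, at 35552 to 64997 sites, 8105 to 13369 regions and 644 to 955 promoters. Of the values of named regions and promoters under alternatives, 352 and 212 kept direction and side of the threshold, and 6 and 32 kept direction but were no longer called. Rsph9 changed direction within 500 bp, to 1.95 points. No paired analysis was possible because the mice of the lines share no animal and their labels no replicate number. Depth per cytosine is unknown, so values resting on few reads could not be set apart.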

Other observations

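Some values belong to no comparison above. The tables differed in which cytosines they listed, with 174713 in the J20 table only and 118623 in the rTg4510 table only, and neither set was analysed here. By level class, 5382 regions were under 20% in J20 and at 20 to 80% in rTg4510, of which 1957 were called, while 324 regions went from 20 to 80% in J20 to under 20% in rTg4510, of which 51 were called. From 20 to 80% in J20 to over 80% in rTg4510 went 5832 regions (1239 called), and from over 80% to 20 to 80% went 1493 (676 called). Only 3 regions were under 20% in J20 and over 80% in rTg4510, and 0 the other way.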
